A study of Mus musculus with 8 samples.

Results

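The CD209 genes of the mouse are 7 related genes, Cd209a to Cd209g, that lie together on chromosome 8 and encode C-type lectins of the DC-SIGN type. They were followed in macrophages of mouse epididymal white fat (eWAT), a visceral depot, and make up 7 of the 41388 genes in the deposited tables. The members were taken by gene symbol as all 7 CD209 family genes of the cluster, and the family was chosen by its counts in mtD2+ against mtD2− libraries, which were already known. Their values in that contrast are therefore a description and carry no test. The first population was live CD45+ F4/80+ CD64+ cells that carried the mtD2 signal (mtD2+), and the other was live CD45+ F4/80+ CD64+ cells without it (mtD2−). Both came from the same 4 male MitoFat mice on normal chow, which gave 8 libraries in 4 pairs. MitoFat is a reporter strain for the mitochondria of adipocytes, so both populations carry the reporter and differ in whether its signal was found in the macrophage. The comparison asks how macrophages that hold adipocyte mitochondria differ from neighbours of the same fat pad that do not. The sources used here give neither the promoter that drives the reporter, nor the age of the mice, nor how many cells were sorted. Collagenase type II released the stromal vascular fraction, and the RNA was amplified from small amounts with a SMARTer kit.

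C-type lectins of this type are membrane proteins that bind mannose-rich or fucose-bearing glycans through a calcium-dependent recognition domain. Human CD209 (DC-SIGN) sits on dendritic cells and on macrophages of tissues, where it takes up glycosylated cargo and microbes and modifies the signal of other receptors. In the mouse the locus has expanded. Cd209b encodes SIGNR1, a receptor for dextran and bacterial polysaccharides on marginal zone macrophages of the spleen, and Cd209a encodes CIRE, a receptor of dendritic cells and monocyte-derived cells. The others encode SIGNR2 (Cd209c), SIGNR3 (Cd209d), SIGNR4 (Cd209e), SIGNR8 (Cd209f) and SIGNR7 (Cd209g).

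The libraries held 18462287 to 27464399 gene-assigned counts in mtD2+ cells and 22379544 to 25285299 in mtD2− cells. The level of the sort marker Ptprc, which encodes CD45, was 417.1 to 526.4 CPM (counts scaled to the size of the library) in mtD2+ and 383.9 to 539.2 in mtD2−. Adgre1, which encodes F4/80, was at 421.0 to 511.2 CPM in mtD2+ and 583.5 to 800.2 in mtD2−, and Fcgr1, which encodes CD64, at 102.2 to 138.0 CPM in mtD2+ and 157.2 to 163.8 in mtD2−. All 3 labelled sort markers were thus present in every library. In bulk RNA of sorted cells, fewer cells that express a gene and less RNA per cell cannot be told apart.

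The 7 genes span 394.3 kb of chromosome 8 on GRCm38. From left to right they are Cd209a (3743395 to 3748984), Cd209e (3847965 to 3854309), Cd209d (3871827 to 3878555), Cd209b (3917655 to 3926844), Cd209c (3940222 to 3954746), Cd209f (4102787 to 4105835) and Cd209g (4134733 to 4137707). Cd209g alone is read from the plus strand and the other members from the minus strand. The gaps between neighbours ran from 13.4 kb, between Cd209b and Cd209c, to 148.0 kb, between Cd209c and Cd209f. No other gene of the tables overlapped a member.

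The sequences show how far the members can be told apart in short reads, since an aligner separates them only where they differ. The same 60-base window of coding sequence is given for each member, on the coding strand and from GENCODE M21. Capitals mark bases that differ from Cd209c.
Cd209a, exon 5, chr8:3746970-3747029: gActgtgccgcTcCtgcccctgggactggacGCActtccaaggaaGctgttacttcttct
Cd209b, exon 8, chr8:3921429-3921488: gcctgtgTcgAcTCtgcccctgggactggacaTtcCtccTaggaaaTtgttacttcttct
Cd209c, exon 3, chr8:3944976-3945035: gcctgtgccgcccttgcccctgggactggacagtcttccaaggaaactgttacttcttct
Cd209d, exon 5, chr8:3876343-3876402: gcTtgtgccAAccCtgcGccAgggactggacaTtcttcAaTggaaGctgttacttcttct
Cd209e, exon 4, chr8:3852831-3852890: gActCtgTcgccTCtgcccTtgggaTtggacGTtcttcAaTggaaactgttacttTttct
Cd209f, exon 6, chr8:4104191-4104250: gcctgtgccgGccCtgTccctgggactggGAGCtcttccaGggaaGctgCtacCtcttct
Cd209g, exon 6, chr8:4136231-4136290: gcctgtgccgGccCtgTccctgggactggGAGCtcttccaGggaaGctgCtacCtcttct

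In this window 32 of the 60 columns are the same in all 7 genes, and Cd209f and Cd209g are identical. Cd209a differs from Cd209c at 7 bases, Cd209b at 8, Cd209d at 10, Cd209f and Cd209g at 11 and Cd209e at 12. Over the 582 aligned bases of their coding sequences Cd209f and Cd209g were 89.2% identical, with an unbroken identical run of 177 bases. The coding sequence of Cd209f is 822 bases long and that of Cd209g 582, so part of Cd209f had no partner. Every other pair was 61.6% to 76.9% identical over its aligned bases, with no run longer than 26 bases. Of all 50-base words in annotated transcripts, Cd209f and Cd209g had 646 in common, which is 29.8% of the words of Cd209f and 16.6% of those of Cd209g. No other pair of members had one in common. In protein-coding transcripts alone, Cd209f and Cd209g shared 433 words on the coding strand, 34.9% of those of Cd209f and 38.7% of those of Cd209g. With words of 75 and 100 bases over all transcripts, the shared part was 23.5% and 19.9% for Cd209f. For Cd209g it was 13.2% and 11.3%. Cd209c held 336 words of 50 bases, 15.7% of its own, that also occur in transcripts of 36 genes outside the family. Within its protein-coding transcripts the share was 22.4%. With words of 75 and 100 bases the share over all its transcripts was 8.9% and 4.4%. At 100 bases the other genes were Gm42546 and Olfr1372-ps1, neither of which is in the deposited tables. Neither the read length nor the treatment of reads with several matches is stated in the sources used here, so the split of reads between Cd209f and Cd209g and part of the Cd209c count are uncertain. The search covered 141767 annotated transcripts and not the rest of the genome.

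Cd209f and Cd209g were also alike upstream of their starts. Their promoters, taken from RefSeq (GRCm38.p6), are shown up to the annotated 5′ end of Cd209f and the base of Cd209g aligned with it, with capitals for bases that differ between the pair or have no partner.
Cd209f, chr8:4105836-4106014, minus strand: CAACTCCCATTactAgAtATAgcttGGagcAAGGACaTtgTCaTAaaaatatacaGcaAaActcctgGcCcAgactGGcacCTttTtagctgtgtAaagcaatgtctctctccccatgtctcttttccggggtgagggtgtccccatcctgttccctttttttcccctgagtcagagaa
Cd209g, chr8:4134486-4134650, plus strand: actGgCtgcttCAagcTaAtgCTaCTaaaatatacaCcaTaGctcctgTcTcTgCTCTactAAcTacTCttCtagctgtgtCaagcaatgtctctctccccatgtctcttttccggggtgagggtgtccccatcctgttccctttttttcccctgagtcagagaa

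The printed stretches end in 83 identical bases. Over the 250 bases before the RefSeq starts the pair shared a run of 154 bases and was 90.5% identical over 231 aligned bases. No other pair of members shared more than 12 bases in a row there. The RefSeq start of Cd209f lies 71 bases inside its gene span in the tables. Part of the 154-base run is therefore annotated transcript of Cd209f and not upstream sequence. The letters CCGGAA, the core of many ETS-type sites, occur on either strand in 5 of the 7 member promoters, against 12.1% of 32544 promoters of the same length. Cd209f and Cd209g are both among the 5, with the motif inside the identical bases of the pair, so their matches are not independent. This motif was chosen after the sequences had been seen. The RefSeq start of Cd209c, whose window is counted here and for the motifs below, lies 7883 bases inside the gene span used in the tables. In Cd209b the CCGGAA motif lies 38 bases before the start and is shown here in capitals as TTCCGG, its reading on the other strand.
Cd209b, chr8:3926842-3927091, minus strand: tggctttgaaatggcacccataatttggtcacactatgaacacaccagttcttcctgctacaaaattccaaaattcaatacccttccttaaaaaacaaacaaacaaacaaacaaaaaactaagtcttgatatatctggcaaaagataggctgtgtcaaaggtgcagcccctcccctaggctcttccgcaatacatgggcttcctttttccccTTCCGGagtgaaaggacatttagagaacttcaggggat

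The PU.1 core GAGGAA was found on either strand in 1 member promoter, against 23.4% of all promoters. The STAT6-type TTCNNNNGAA was found in 1 member, against 5.9%, and the letters TATAAA, as in a TATA box, in 3 members, against 12.3%. These letters lay 184 bases before the RefSeq start in Cd209a, where they read on the other strand. They lay 29 bases before it in Cd209f and 43 in Cd209g. The match in Cd209f falls inside its annotated gene span and not upstream of it. Cd209f and Cd209g, whose promoters are closely alike, are both among those with TATAAA. The motif positions were searched as letters only and were not tested against any binding data.

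All 7 members passed the filter on low counts, and the family took a small share of the RNA. Together they held 0.147% to 0.218% of the counts in the mtD2+ libraries and 0.108% to 0.1697% in the mtD2− libraries. Cd209f alone was 44.0% to 47.5% of the family counts in mtD2+ and 45.5% to 51.9% in mtD2−. Cd209c was 1.88% to 3.27% of the family counts in mtD2+ and 0.581% to 1.51% in mtD2−, ranges that do not meet. Per gene length, in the deposited RPKM (counts scaled to library size and gene length), Cd209f had the highest level, with 507 ± 116 RPKM in mtD2+ and 443 ± 107 in mtD2− (SD, n = 4 each). Its lowest library lay above the highest library of Cd209g. Cd209g averaged 231 ± 33.7 RPKM in mtD2+ and 208 ± 37.4 in mtD2−, and Cd209d 227 ± 55.2 RPKM in mtD2+ and 178 ± 21.6 in mtD2−. These 2 genes overlapped, and Cd209g was higher in 1 of 4 mtD2+ libraries and in 4 of 4 mtD2− libraries.

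Cd209b, at 121 ± 34.7 RPKM in mtD2+ and 83.1 ± 20.5 in mtD2−, and Cd209a, at 107 ± 12.99 RPKM in mtD2+ and 84.2 ± 9.87 in mtD2−, came next and overlapped with each other. Both lay below every library of Cd209d and above every library of Cd209c. Cd209c averaged 22.7 ± 5.22 RPKM in mtD2+ and 7.91 ± 3.47 in mtD2−. Cd209e was the lowest, with 5.29 ± 1.63 RPKM in mtD2+ and 5.65 ± 4.59 in mtD2−. Cd209c exceeded Cd209e in 4 of 4 mtD2+ libraries and in 2 of 4 mtD2− libraries.

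**Figure D1:**
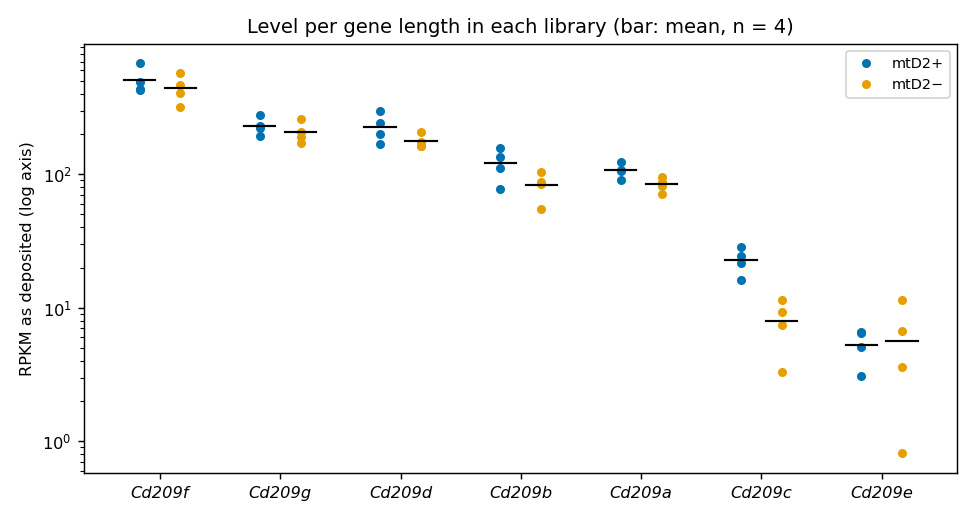
Level of each CD209 gene per gene length, as deposited RPKM on a log axis, in the 4 mtD2+ (left of each pair) and 4 mtD2− libraries, with the mean as a bar. Cd209f stands highest, Cd209g and Cd209d overlap, as do Cd209b and Cd209a, and Cd209c and Cd209e lie lowest.

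Across all genes, 767 of 13933 tested genes (5.5%) differed between mtD2+ and mtD2− at an adjusted p under 0.05 in edgeR's quasi-likelihood test with the mouse as a block. Of these, 519 (3.72% of the tested genes) were higher and 248 (1.78%) lower in mtD2+. Of the 7 members, 2 (Cd209b and Cd209c) were among the genes called and both were higher. The contrast had been used to choose the members, so nothing is read from this count. The level of 6 of the 7 members was higher in mtD2+ than in mtD2− in all 4 mice, where 16.3% of tested genes were. For 2 members, Cd209a and Cd209c, the 4 mtD2+ libraries all lay above the 4 mtD2− libraries, where 6.55% of tested genes did. Levels below are CPM scaled with edgeR's TMM factors. Log2 fold changes are mtD2+ over mtD2−.

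Cd209c, the SIGNR2 gene, had the largest fold change of the family. It stood at 47.0, 41.6, 54.4 and 32.0 CPM in the mtD2+ libraries of mice 1 to 4, against 17.2, 13.2, 20.4 and 6.81 CPM in their mtD2− libraries. Mouse 4 was lowest and mouse 3 highest in both populations, and the populations did not overlap. The means were 43.7 ± 9.39 CPM in mtD2+ and 14.4 ± 5.87 in mtD2− (SD, n = 4 each), a fitted log2 fold change of 1.68 (SE 0.18), or 3.20-fold. The log2 ratio within a mouse ran from 1.41 in mouse 3 to 2.23 in mouse 4. These levels rest on 566 to 1227 reads per mtD2+ library and 148 to 486 per mtD2− library.

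Cd209b, the SIGNR1 gene, stood at 240.5, 340.5, 288.0 and 170.1 CPM in mtD2+ of mice 1 to 4, against 179.7, 206.4, 169.1 and 127.1 CPM in mtD2−. The populations overlapped, because mtD2+ of mouse 4 lay below mtD2− of mice 1 and 2. Within each mouse the mtD2+ library was higher, with log2 ratios from 0.42 to 0.77. The fitted log2 fold change was 0.58 (SE 0.11), or 1.498-fold. It was not called without the mouse block or when mouse 1, 2 or 3 was left out.

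Cd209a, the CIRE gene, was at 162.8, 186.2, 158.2 and 141.6 CPM in mtD2+, against 137.3, 99.3, 122.9 and 132.3 CPM in mtD2−. The lowest mtD2+ library lay just above the highest mtD2− library. The fitted log2 fold change was 0.40 (SE 0.14). Mouse 2 had the largest log2 ratio, 0.91, and mouse 4 the smallest, 0.10.

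Cd209d, the SIGNR3 gene, was at 185.5, 276.6, 155.5 and 231.4 CPM in mtD2+, against 145.9, 178.7, 151.1 and 162.7 CPM in mtD2−. The populations overlapped, and mouse 3 showed almost no difference (log2 ratio 0.04, against 0.63 in mouse 2). The fitted log2 fold change was 0.38 (SE 0.12).

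**Figure D2:**
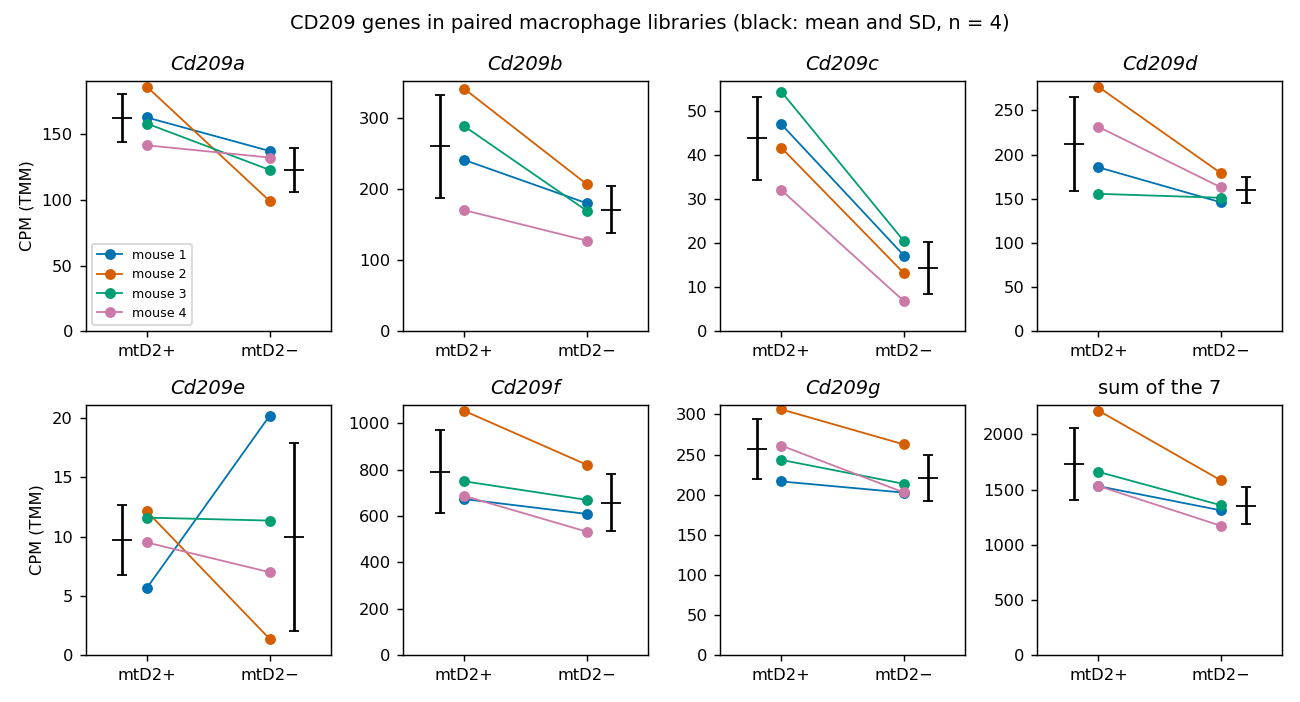
CPM with TMM factors of each CD209 gene and of their sum in the mtD2+ (left) and mtD2− (right) library of each mouse, joined by a line, with the mean and SD of each group in black (n = 4). Every line falls towards mtD2− except for mouse 1 in Cd209e, and Cd209c and Cd209a are the genes whose groups do not overlap.

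Cd209f, the most abundant member, was at 673.0, 1054, 749.7 and 687.0 CPM in mtD2+, against 608.7, 821.1, 669.5 and 532.2 CPM in mtD2−. Mouse 2 was highest in both populations, which overlapped. The log2 fold change was 0.26 (SE 0.10). Cd209g was at 216.5, 306.4, 243.4 and 261.2 CPM in mtD2+, against 202.5, 262.6, 213.5 and 202.7 CPM in mtD2−, again with mouse 2 highest. Its log2 fold change was 0.22 (SE 0.10). The ratio of the Cd209f count to the Cd209g count stayed between 2.63 and 3.44 over the 8 libraries, the steadiest ratio of any pair of members (coefficient of variation 9.04%). The share of reads that fit both genes was not tested.

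Cd209e, the SIGNR4 gene, was the exception. It was at 5.65, 12.1, 11.6 and 9.51 CPM in mtD2+ of mice 1 to 4, against 20.2, 1.36, 11.4 and 6.99 CPM in mtD2−. The highest and the lowest library of the gene were thus the mtD2− libraries of mice 1 and 2, on 525 and 36 reads. The log2 ratio was −1.84 in mouse 1 and 3.16 in mouse 2. The fitted log2 fold change of 0.35 had an SE of 0.68 and turned to −0.43 when mouse 2 was left out and to −0.04 without the mouse block, so no direction is given for this gene.

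The sum of the 7 genes was 1531, 2218, 1661 and 1533 CPM in mtD2+ of mice 1 to 4, against 1311, 1583, 1358 and 1171 CPM in mtD2−. Mouse 2 was highest in both populations, and its mtD2− library lay above the mtD2+ libraries of mice 1 and 4. The log2 fold change of the sum was 0.35 (SE 0.10), with ratios of 0.22 to 0.49 in the 4 mice.

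**Figure D3:**
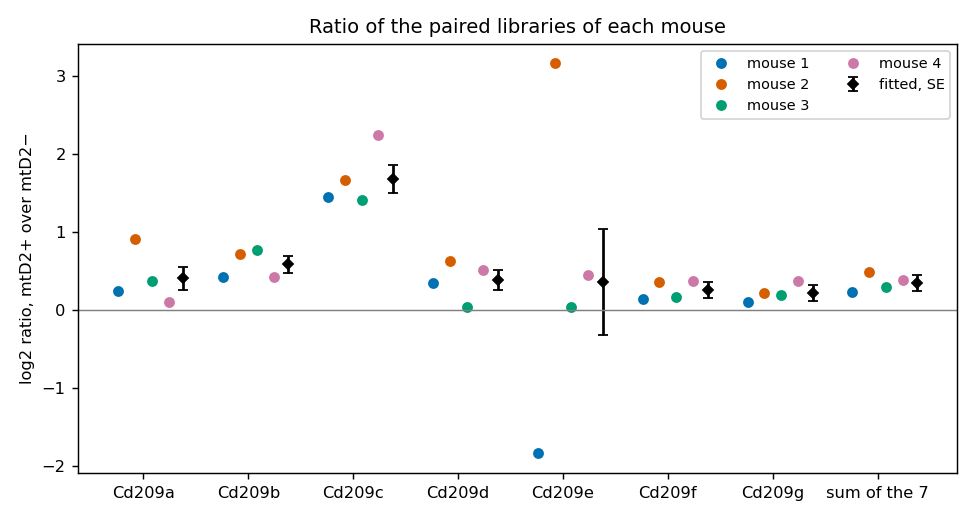
Log2 ratio of the mtD2+ over the mtD2− library of each mouse for the CD209 genes and their sum, with the fitted log2 fold change and its SE as a black diamond. Cd209c lies at 1.41 to 2.23 in all 4 mice, and Cd209e spreads from −1.84 to 3.16.

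The members did not all vary together over the 8 libraries. As a description across libraries that share depth and group, Pearson's r of log2 CPM was highest for Cd209f with Cd209g (0.91), followed by Cd209b with Cd209f (0.84) and Cd209d with Cd209g (0.83). For Cd209b with Cd209c it was 0.80. Cd209e had values from −0.21, with Cd209g, to 0.61, with Cd209a.

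Among 9348 other tested genes, the patterns most like each member over the 8 libraries were found by the same measure. For Cd209c they were Atp7a, which encodes a copper-transporting ATPase (0.99), Ank2, which encodes an ankyrin (0.98), and Adck5 (0.98). For Cd209b they were Stard8 (0.99), Eri3 (0.97) and the phosphodiesterase gene Pde7a (0.94). Cd209f and Cd209g had the same closest gene, Vps52 of the GARP tethering complex, at 0.92 for Cd209f and 0.93 for Cd209g. Next came Dpf3 (0.90) and Colca2 (0.89) for Cd209f, and Camsap2 (0.90) and Plppr3 (0.87) for Cd209g. For Cd209a the closest were Med23 (0.95), the thromboxane synthase gene Tbxas1 (0.94) and Dennd1a (0.93). For Cd209d they were Cdkn2c (0.94), Tpcn1 (0.93) and Fabp4 (0.90), and for Cd209e Mknk1 (0.95), Dna2 (0.94) and Kdm5c (0.94). For the sum of the 7 genes they were Plppr3 (0.93), Stard8 (0.92), Eri3 (0.92), Vsig4 (0.92) and the lectin gene Clec10a (0.90). All these libraries share their depth and their group with the members, and few of these stayed closest with Spearman's rho or after group means were taken out. Stard8 for Cd209b did under both.

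In the 250 kb on either side of the cluster and between its members, 38 other genes are annotated, of which 20 were tested. None was called by edgeR's quasi-likelihood test, where 3 had an unadjusted p under 0.05, while DESeq2 called 1 higher and 1 lower and limma voom none. Their median log2 fold change was 0.18, against −0.0006 over all tested genes. The lowest unadjusted p belonged to Mcemp1, with 4.24 ± 2.47 CPM in mtD2+ and 8.26 ± 3.20 in mtD2− (adjusted p = 0.101). Gm7389, the only tested gene of the 7 that lie between members, was near the limit of detection, with 1.64 ± 1.13 CPM in mtD2+ and 0.437 ± 0.639 in mtD2−. Its log2 fold change was 2.72 (SE 0.94, adjusted p = 0.130). Elavl1, which encodes the RNA-binding protein HuR, had a log2 fold change of −0.42 (SE 0.16), and Mcoln1, which encodes a lysosomal cation channel, one of 0.34 (SE 0.15), with adjusted p = 0.161 and 0.224.

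**Figure D4:**
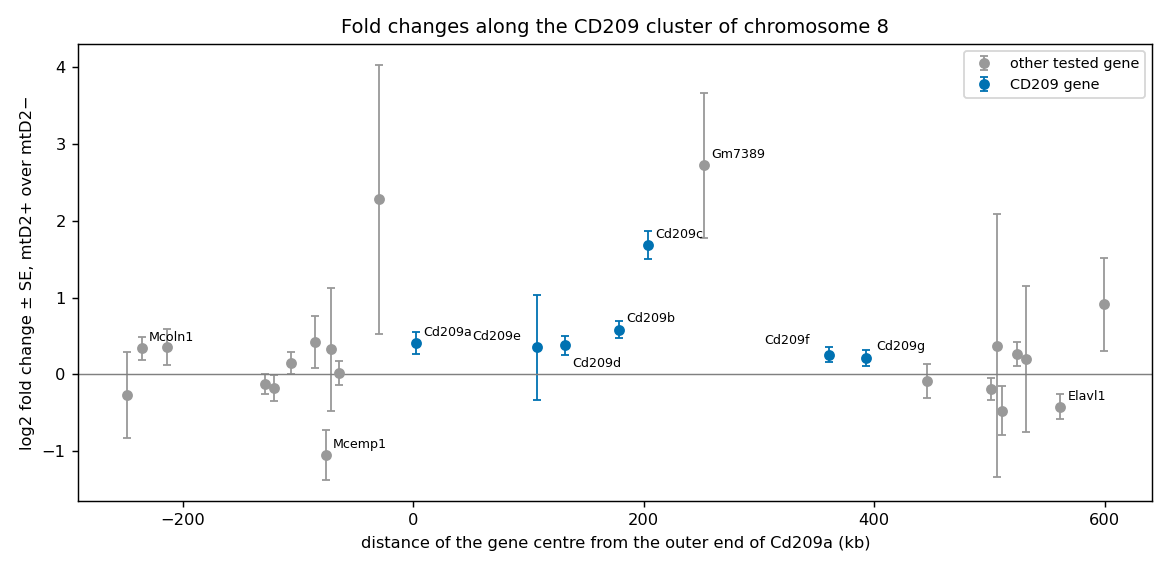
Log2 fold change (mtD2+ over mtD2−) with its SE for the CD209 genes and the other tested genes within 250 kb, against the distance of the gene centre from the outer end of Cd209a. Cd209c, at 1.68, stands above the other CD209 genes.

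Among the other C-type lectin receptors of myeloid cells more genes fell than rose in mtD2+. Of 25 tested, 1 rose and 7 fell, with a median log2 fold change of −0.27. Without the mouse block 0 were called higher and 0 lower. Mrc2, among those that fell, was near the limit of detection, with 0.12 ± 0.12 CPM in mtD2+ and 2.04 ± 1.41 in mtD2−. Clec4e, which encodes the receptor Mincle for cord factor and dead cells, rose to 272.6 ± 119.2 CPM in mtD2+, against 146.0 ± 88.2 in mtD2−, by 1.03 on the log2 scale (SE 0.18, adjusted p = 0.0160). Mgl2, which encodes a galactose-type lectin (CD301b), fell to 1678 ± 208.5 CPM in mtD2+, against 2632 ± 258.6 in mtD2− (log2 fold change −0.65, adjusted p = 0.0119). Clec4a2 and Clec4b1, both of the Dectin-2 gene cluster, fell by 0.54 and 0.59 on the log2 scale (adjusted p = 0.0208 and 0.0235). Clec4e, Clec4a2 and Clec4b1 lost their calls without the block and without mouse 1, 2 or 3, and Mgl2 without the block and without mouse 1 or 3. The mannose receptor gene Mrc1 (log2 fold change 0.19, SE 0.10) and Clec10a (0.28, SE 0.10) did not pass, with adjusted p = 0.316 and 0.125. Mrc1 and Mrc2 were chosen after their values were seen.

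Genes of the signalling pathway of human DC-SIGN were mostly not called. Of 27 tested, 1 rose and 1 fell, with a median of 0.19. Nfkb1, which encodes an NF-κB subunit, rose to 250.8 ± 54.3 CPM in mtD2+, against 167.0 ± 28.6 in mtD2−, by 0.58 on the log2 scale (SE 0.10, adjusted p = 0.0160). Rhoa, the small GTPase gene, fell to 214.9 ± 28.8 CPM in mtD2+, against 301.6 ± 16.7 in mtD2− (log2 fold change −0.50, adjusted p = 0.0444). Il10, the gene of an anti-inflammatory cytokine, was at 87.3 ± 11.5 CPM in mtD2+ and 50.2 ± 18.7 in mtD2−, was higher in 3 of 4 mice and did not pass (adjusted p = 0.0564). Il10 was called with no filter, with the 1 CPM filter, by DESeq2, by limma voom and without mouse 4. Nfkb1 lost its call without the block and without mouse 1, 2 or 3, and Rhoa without the block, with upper-quartile factors and without any 1 of the mice.

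Among 10 ligands and partners of DC-SIGN or SIGNR1, 0 rose and 2 fell, with a median of −0.38. The complement gene C3 fell to 55.3 ± 14.2 CPM in mtD2+, against 212.7 ± 86.5 in mtD2−. Its log2 fold change was −1.89 (SE 0.17, adjusted p = 0.00137), and it passed under every other setting tried. C1qb, which encodes a chain of the complement protein that SIGNR1 binds, fell by 0.47 on the log2 scale (adjusted p = 0.0381), a call lost without the block and without mouse 1, 3 or 4. Icam2, which encodes a ligand of human DC-SIGN, was at 11.03 ± 5.53 CPM in mtD2+ and 21.4 ± 6.61 in mtD2− and did not pass (adjusted p = 0.0597), but was called with no filter, with the 1 CPM filter, by DESeq2 and by limma voom.

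Of 24 tested genes of the interleukin 4, interleukin 33 and CSF1 inputs, which are known to bear on CD209 genes or on alternatively activated macrophages, 3 rose and 0 fell, with a median of 0.00. Stat3 rose to 601.0 ± 83.1 CPM in mtD2+, against 320.8 ± 53.6 in mtD2−. Its log2 fold change was 0.91 (SE 0.10, adjusted p = 0.00323), and it passed under every other setting tried. Il2rg, the gene of the common gamma chain of cytokine receptors, rose by 0.51 (adjusted p = 0.0240) and Irf4, a transcription factor gene, by 0.53 (adjusted p = 0.0471) on the log2 scale. Il2rg lost its call without the block and without mouse 1, 2 or 3, and Irf4 without the block, with library totals alone and without any 1 of the mice. Spi1, which encodes PU.1, was at 88.5 ± 7.98 CPM in mtD2+ and 67.9 ± 4.89 in mtD2− and did not pass (adjusted p = 0.0875), but was called by DESeq2. Stat6 (log2 fold change 0.17, SE 0.11) and the receptor genes Il4ra (0.05, SE 0.15) and Il13ra1 (−0.46, SE 0.21) did not pass. Stat6, Il4ra and Il13ra1 were chosen after their values were seen.

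CD209 genes of the mouse are used with others to mark resident perivascular macrophages. Of 24 tested genes of such cells, 3 rose and 1 fell, with a median of 0.04. Vsig4, a complement receptor gene, rose to 40.5 ± 12.7 CPM in mtD2+, against 20.6 ± 3.97 in mtD2−, by 0.95 on the log2 scale (SE 0.17, adjusted p = 0.0160). Ccl8, a chemokine gene, and Stab1, a scavenger receptor gene, rose by 0.65 and 0.54 on the log2 scale (adjusted p = 0.0141 and 0.0258), and Pf4, a chemokine gene, fell by 0.56 (adjusted p = 0.0152). The calls of Vsig4, Ccl8, Stab1 and Pf4 were lost without the block and without mouse 1, 2 or 3. The summed level of the list was 25070 to 31900 CPM in mtD2+ and 22820 to 28090 in mtD2−, which overlap.

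Markers of other cells moved too. The part of such cells in the CD209 values and in those of the other genes above, C3 among them, was not tested. Of 18 fibroblast and adipocyte precursor markers, 0 rose and 9 fell, with a median of −1.52 and summed levels of 653.2 to 955.2 CPM in mtD2+ and 1911 to 4760 in mtD2−. These sums depend largely on Gsn, the gene of highest mean level in the list. It was at 552 ± 123.2 CPM in mtD2+ and 1592 ± 1119 in mtD2− and is given for its level. Col1a2, a collagen gene, was at 23.1 ± 4.65 CPM in mtD2+ and 135.1 ± 18.6 in mtD2− (adjusted p = 0.000327). Of 14 monocyte markers, 0 rose and 2 fell, Ccr2 and S100a6, with a summed level of 738.2 to 916.4 CPM in mtD2+ and 948.3 to 1275 in mtD2−. Of 24 dissociation-responsive genes, 9 rose and 0 fell, with a median of 0.45 and a summed level of 27610 to 32530 CPM in mtD2+ and 14980 to 30460 in mtD2−. Hspe1, the gene of a mitochondrial chaperonin subunit, was at 164.7 ± 32.2 CPM in mtD2+ and 70.7 ± 16.3 in mtD2− (adjusted p = 0.00249). The dissociation sum was higher in mtD2+ of every mouse, with log2 ratios from 0.10 in mouse 4 to 0.89 in mouse 2.

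Dendritic cells express CD209 genes, and the levels of their markers differed from gene to gene. Of 16 tested, 0 rose and 1 fell, Batf3, and the summed level was 343.6 to 415.0 CPM in mtD2+ and 384.2 to 540.5 in mtD2−. Flt3, which defines dendritic cells, was at 1.32, 0.445, 0 and 0 CPM in mtD2+ of mice 1 to 4, against 0.654, 1.02, 2.10 and 1.38 in mtD2−. Zbtb46 was at 9.04 to 15.7 CPM in mtD2+ and 7.44 to 16.9 in mtD2−. Irf8 stood higher, at 152.8 ± 20.8 CPM in mtD2+ and 203.9 ± 36.5 in mtD2−. It did not pass edgeR's quasi-likelihood test (adjusted p = 0.125) but was called by DESeq2. Siglech was at 71.2 ± 3.59 CPM in mtD2+ and 63.95 ± 23.64 in mtD2−, and Kmo at 51.5 ± 4.39 and 56.1 ± 16.5. Zbtb46, Siglech and Kmo are not among the 4 of smallest unadjusted p and are given for their levels. Of 10 endothelial markers, 0 were called by edgeR's quasi-likelihood test, with 1 at an unadjusted p under 0.05, while DESeq2 called 1 higher and limma voom 0. Their summed level was 17.1 to 57.6 CPM in mtD2+ and 20.3 to 32.98 in mtD2−. Of 10 lymphocyte markers, 0 rose and 1 fell, Cd79b, and of 13 sort and pan-macrophage genes, 1 rose, Mertk, and 4 fell, Cx3cr1, Aif1 and Adgre1 among them. Of the markers named here, Gsn left aside, Col1a2, Hspe1 and Cx3cr1 were called under every other setting. The calls of Ccr2, S100a6, Batf3, Cd79b, Mertk, Aif1 and Adgre1 were each lost when at least 1 of the mice was left out. Those of S100a6, Cd79b, Mertk, Aif1 and Adgre1 were also lost without the block, and that of Mertk with library totals alone.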

How the data were processed

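RNA was sequenced from the mtD2+ and mtD2− macrophages of 4 male mice (8 libraries). Per the submitters' processing notes, the tools were bcl2fastq, STAR 2.0.4b, Subread and featureCounts 1.45, with build GRCm38. Options, strand setting and read length are unstated (not given in the sources used here). For each library the authors deposited counts per gene, which are whole and unnormalised, with CPM (counts scaled to the library's total) and RPKM (CPM per kilobase of gene). Symbols came from GENCODE M21 for 40254 of 41388 identifiers.

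The test was the quasi-likelihood F test of edgeR 4.0.16 (R 4.3.3) on counts, with TMM scaling, the mouse as a block and the tool's expression filter (minimum count 10, minimum total 15, large-sample proportion 0.7). P-values were adjusted by Benjamini-Hochberg over 13933 genes and called under 0.05. Pairing rests on the labels, whose mouse identifier ties each mtD2+ library to an mtD2− library. The deviations of same-mouse libraries from the group means correlated at 0.065, 0.090, 0.185 and 0.295 for mice 1 to 4, and in mouse 1 a library of another mouse reached 0.068. The SE is the log2 fold change over the root of F. Printed CPM uses TMM factors. Deposited RPKM served only to order genes. Fold changes of the 7 members carry no p. The 60-base window was picked from an alignment of the coding sequences with mafft 7.526. It was the one with the most columns identical in all 7 genes, without gaps and inside 1 exon of each. Percent identities of pairs came from global pairwise alignments with Biopython, with gap columns left out. Words of 50, 75 and 100 bases over all transcripts were matched on either strand.

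The members and gene lists were chosen with earlier results of these data known. Named genes are the members, up to 4 of each list and of the neighbours by smallest unadjusted p, the 3 genes of highest Pearson r with each member and the 5 with their sum (mean of at least 5 CPM). The alternatives were a fit without the block, 3 scalings, 2 filters, DESeq2 1.42.0, limma 3.58.1 voom and leaving out each mouse.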

Additional observations from a re-analysis of the deposited data

How the results depend on the processing

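The log2 fold change of Cd209c stayed between 1.51 and 1.78 in all 12 other fits. That of Cd209e ran from −0.43 to 1.11, and those of the other members and the sum kept their sign. The pairing mattered for counts of calls: without the mouse block 218 genes passed (147 higher, 71 lower), against 767, with 1 member (Cd209c), against 2, and 13 genes of the lists and neighbours, against 46. DESeq2 called 1799 genes, 4 members (Cd209a, Cd209b, Cd209c and Cd209d) and 74 list genes. Leaving out 1 mouse gave 166 to 555 genes, 1 to 2 members and 12 to 42 list genes. These fits have fewer samples. The contrast had been used to choose the members, so nothing is read from how many of them were called in any fit. With library totals alone, 53.8% of calls were higher in mtD2+, against 67.7%. The 52 genes of smallest unadjusted p from the lists and neighbours, not all of them printed here, were followed over the settings. Of their 619 other values, 510 kept direction and side of the threshold, 90 lost the call, 19 gained it and 0 reversed. Genes named for their pattern, for their level or after their values were seen are not among the 52. The biological coefficient of variation over all genes was 33.7%.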
